A study of Rattus norvegicus with 31 samples.

Results

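The desaturases *Fads1* and *Fads2*, the elongases *Elovl1*, *Elovl2*, *Elovl5* and *Elovl6*, and the 3-ketoacyl-CoA reductase *Hsd17b12* were followed in the liver and in the white (WAT) and brown (BAT) adipose tissue of rats fed diets of different carbohydrate-fat ratio. These 7 genes, out of 14217 on the array, were chosen for their place in 1 pathway, with earlier results of these data known. They were read from the 9 probe sets annotated to 1 of them alone, out of 31042. *Elovl5* and *Elovl6* each have a pair of probe sets, and the one with the higher mean in every tissue stands for the gene unless the other is named. *Fads1* was called higher in the liver and lower in BAT of the high-fat group, and *Elovl6* was called lower in both adipose tissues, all by rank products, the ranking method of the study. None of the 7 genes passed limma in any comparison of diets within a tissue. Limma weighs each probe set against its own spread, drawn toward a value estimated from all probe sets.

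RNA was taken from male Wistar rats that were 3 weeks old on arrival and received a low (L), moderate (M) or high (H) fat diet. Carbohydrate and fat supplied 65 and 15% of the energy in the L-diet, 60 and 20% in the M-diet, and 35 and 45% in the H-diet. The L-group ate freely and the other groups were given the same energy for 9 weeks, and every rat was fasted for 17 h before dissection, so that all values describe the fasted state. Livers came from 5 L rats (L1 to L5), 4 M rats (M6, M8, M9 and M10) and 4 H rats (H12, H13, H15 and H16), and WAT and BAT in the same L and H rats, on 1 Affymetrix array per rat and tissue.

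Long polyunsaturated fatty acids are built from the dietary linoleic and alpha-linolenic acids by alternating desaturation and elongation in the endoplasmic reticulum. *Fads2* places the first of the new double bonds and *Fads1* the last one needed for arachidonic and eicosapentaenoic acid, while each elongation round starts with an ELOVL condensing enzyme and continues with the ketoacyl reduction by *Hsd17b12*. *Elovl5* and *Elovl2* extend polyunsaturated chains, *Elovl6* extends palmitate to stearate, and *Elovl1* makes very long saturated and monounsaturated chains. The liver is the main site of polyunsaturated fatty acid synthesis, and its desaturases are known to respond to sterol regulatory element-binding protein 1 (*Srebf1*) and to dietary fat.

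Each tissue was normalized on its own by the authors, as log2 values from a different procedure, so levels are not compared between tissues. In WAT, 25762 of 31042 probe sets (83.0%) held 1 value on all arrays, to within 1e-06, and *Fads1* (9.17), *Fads2* (6.97), *Elovl1* (9.55) and *Elovl2* (5.94) were among them. In BAT, *Fads2* lay at the lowest value of the tissue, 2.29, on 8 of 9 arrays and at 2.34 in rat L3, and *Elovl2* lay between 2.36 and 2.41. For these genes the files carry no diet difference that could be read. Of the 6 adipocyte markers, *Adipoq* was at most 3.53 in the liver and ran from 13.20 to 13.39 in WAT. *Lep*, *Plin1* and *Fabp4* were at most 3.57, 3.93 and 5.07 in the liver. *Lipe* reached 7.24 there and *Cidec* ran from 9.03 to 9.57, so these markers were not all low in the liver. In WAT *Plin1*, *Fabp4* and *Cidec* each held 1 value. *Ucp1* ran from 14.44 to 14.89 in BAT. Albumin (*Alb*) ran from 14.28 to 14.30 in the liver. It also ran from 7.83 to 12.71 in WAT and from 12.62 to 13.36 in BAT, so it was not confined to the liver. Of 6 brown adipocyte markers 1, *Elovl3*, lay at the lowest value of BAT, 2.29, on every array. *Cidea*, another of them, ran from 10.13 to 11.67 in WAT. The BAT of rats H13 and H15 carried skeletal muscle signal, with a score (mean log2 deviation over 9 muscle genes) of 1.66 and 2.74 against -0.66 to -0.60 in the other 7 rats. In bulk tissue, fewer cells of a type and less RNA per cell cannot be told apart.

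*Fads1* (gene at chr1:216252605-216267618) and *Fads2* (chr1:216132277-216172190) lie on the same chromosome, divided by 80.4 kb on GRCr8, and are read away from each other. Their promoters, 250 bases before to 50 bases after the start site of the transcript in the RefSeq table on GRCr8, are shown because these 2 neighbours varied together in the liver. Capitals mark CCAAT, the NF-Y box, and GGGCGG, the Sp1 box, on either strand (ATTGG and CCGCCC on the other one).
Fads1 (chr1:216252442-216252741, plus strand): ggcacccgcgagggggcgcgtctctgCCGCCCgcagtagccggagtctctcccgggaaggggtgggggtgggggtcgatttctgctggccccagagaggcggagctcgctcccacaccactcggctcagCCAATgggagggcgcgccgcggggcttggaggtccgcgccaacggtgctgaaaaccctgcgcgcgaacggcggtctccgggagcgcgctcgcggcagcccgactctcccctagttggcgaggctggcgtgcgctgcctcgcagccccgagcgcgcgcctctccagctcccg
Fads2 (chr1:216171984-216172283, minus strand): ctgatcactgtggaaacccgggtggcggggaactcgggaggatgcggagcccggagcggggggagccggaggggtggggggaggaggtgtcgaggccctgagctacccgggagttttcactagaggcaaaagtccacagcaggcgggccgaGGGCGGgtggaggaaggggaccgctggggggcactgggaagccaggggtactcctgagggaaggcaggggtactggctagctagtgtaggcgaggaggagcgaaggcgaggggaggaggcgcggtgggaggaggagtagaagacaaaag
The *Fads1* promoter held CCAAT beginning 121 bases before the start site and GGGCGG on the other strand beginning 224 bases before it. The *Fads2* promoter held GGGCGG beginning 99 bases before its start site. Both start sites lie inside the gene spans given above. The GGGCGG of *Fads2* lies inside its gene span as well, while the boxes of *Fads1* lie before its span. Neither held the E-box CACGTG, the nuclear receptor element AGGTCA or TCACNCCAC, a form of the sterol regulatory element. Among all 33469 promoters of this length, 37.5% held CCAAT, 33.1% GGGCGG, 6.42% CACGTG, 16.2% AGGTCA and 1.12% TCACNCCAC. Of the 7 genes, 6 had a promoter in the table, and it held none for *Elovl6*.

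In the liver, *Fads1* had the clearest difference between the diets among the 7 genes. Its log2 values were 9.94, 9.12, 10.64, 9.95 and 9.87 in rats L1 to L5. They were 10.01, 9.80, 9.92 and 10.47 in M6, M8, M9 and M10, and 10.65, 10.93, 10.75 and 10.26 in H12, H13, H15 and H16. The H-group was the highest, with 3 of its 4 rats above every L and M rat, but L3 and M10 lay above H16, so the groups overlapped. The means were 9.90 ± 0.54 (SD, n = 5) in the L-group, 10.05 ± 0.29 (SD, n = 4) in the M-group, then 10.65 ± 0.28 (SD, n = 4) in the H-group. From L to H the log2 fold change was 0.74 (standard error 0.24, limma adjusted p = 0.390), a ratio of 1.67, with a two-sided exact permutation p = 0.0476. Rank products called it higher at a false discovery rate (FDR) of 0.00552, but without rat H13 the FDR was 0.0620.

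By the group means, more of this difference lay between M and H than between L and M, but the steps were not tested against each other. From M to H *Fads1* differed by 0.60 on the log2 scale (standard error 0.25, limma adjusted p = 0.823) and was called higher by rank products (FDR 0.0197), a call that was lost without M8 (FDR 0.0588), H12 (0.0797), H13 (0.189) or H15 (0.0998) and when low probe sets, below the liver median, were left out (0.0532). From L to M the log2 fold change was 0.14 (standard error 0.24), less than the spread within the L-group. The 3 liver comparisons share arrays and are not independent of each other.

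*Fads2*, the first enzyme of the pathway, had the same order of group means as *Fads1* with a smaller difference. Its log2 values were 8.76, 7.69, 8.75, 8.55 and 8.40 in L1 to L5, 8.39, 8.74, 8.09 and 8.81 in M6, M8, M9 and M10, and 8.82, 9.22, 8.69 and 8.72 in H12, H13, H15 and H16. Rat L2 had the lowest value of both desaturases and rat H13 the highest. The log2 fold change of *Fads2* from L to H was 0.43 (standard error 0.21, limma adjusted p = 0.573), the two-sided exact permutation p was 0.0952, and rank products did not call it (FDR 0.119).

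*Fads1* and *Fads2* varied together over the 13 livers, with Pearson's r = 0.82 (permutation p = 0.00047, adjusted p = 0.00188 over the 4 relations computed) and Spearman's rho = 0.65 (permutation p = 0.0173, adjusted p = 0.0692). Without rats L2 and H13, the farthest from the *Fads1* median, r was 0.54 (permutation p = 0.0860, adjusted p = 0.241), so that the relation rests on those rats. After the mean of each diet group was removed, r was 0.75 (permutation p = 0.0185, adjusted p = 0.0740). The other 3 relations of *Fads1* did not pass: r = 0.02 and rho = 0.04 with *Elovl5* (permutation p = 0.941 and 0.891), r = -0.34 and rho = -0.45 with *Elovl6* (permutation p = 0.252 and 0.120), and r = 0.54 and rho = 0.37 with *Srebf1* (permutation p = 0.0548 and 0.209). Their adjusted p ran from 0.110 to 0.941. No test of these relations is given for BAT, where the diet groups did not overlap in *Fads1* and hold fewer than 6 rats each.

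**Figure D1:**
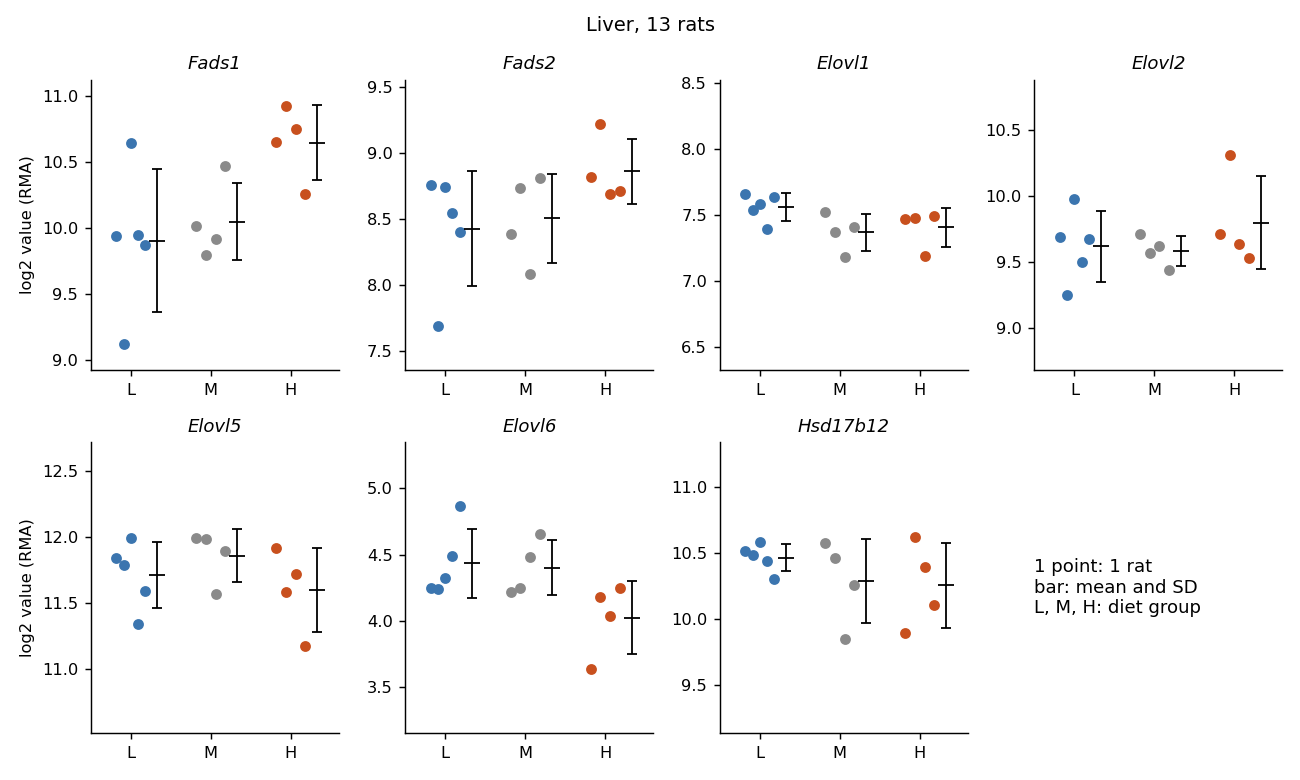
Log2 values (RMA) of the 7 genes in the liver of 13 rats, by diet group on the horizontal axis. Each point is 1 rat and each bar the group mean with its SD, every panel spans at least 2.2 log2 units, and 3 of the 4 H rats lie above all others in Fads1.

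None of the elongases in the liver was called from L to H on the probe set that stands for the gene. *Elovl6*, low in the liver files, had 4.43 ± 0.26 (SD, n = 5) in the L-group, 4.40 ± 0.21 (SD, n = 4) in the M-group, then 4.02 ± 0.28 (SD, n = 4) in the H-group. Its L rats had 4.25, 4.24, 4.32, 4.49 and 4.87 and its H rats 3.63, 4.18, 4.03 and 4.25, with H16 (4.248) just above L2 (4.242). The log2 fold change from L to H was -0.41 (standard error 0.15, limma adjusted p = 0.447), with a two-sided exact permutation p = 0.0476 and a rank products FDR of 0.0625. *Elovl6* was called lower only when a single H rat was left out, at an FDR of 0.0392 without H13 and 0.0290 without H16.

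*Elovl2*, which extends the longest polyunsaturated chains, had 9.62 ± 0.27 (SD, n = 5), 9.59 ± 0.11 (SD, n = 4) and 9.80 ± 0.35 (SD, n = 4) in the L-, M- and H-groups, and rat H13 had its highest value, 10.31. *Elovl5* had 11.71 ± 0.25 (SD, n = 5), 11.86 ± 0.20 (SD, n = 4) and 11.60 ± 0.31 (SD, n = 4). *Elovl1* had 7.56 ± 0.11 (SD, n = 5), 7.37 ± 0.14 (SD, n = 4) and 7.41 ± 0.15 (SD, n = 4), and its log2 fold change from L to M, -0.19 (standard error 0.08), had a two-sided exact permutation p = 0.0476 and did not pass limma. *Hsd17b12* had 10.46 ± 0.10 (SD, n = 5), 10.28 ± 0.32 (SD, n = 4) and 10.25 ± 0.32 (SD, n = 4). The log2 fold changes of these 4 genes from L to H ran from -0.21 to 0.18, each within 2 standard errors of 0, while the other probe set of *Elovl5* had -0.55 (standard error 0.24) and is described with the pairs of probe sets.

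Over the liver, rank products called 1 of the 7 genes from L to H, where it called 1.4% of all probe sets, 0 of 7 from L to M (0.393%) and 1 of 7 from M to H (0.747%). Limma called 0 of 7 in each, against 0.0354, 0.00644 and 0.0129% of all probe sets, with 2, 1 and 2 genes at an unadjusted p under 0.05, as were 2809, 1252 and 1827 of the 31042 probe sets. No gene was free of overlap between the L and H livers, as 3.06% of all probe sets were.

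In WAT, the value of *Elovl6* was lower in every H rat than in every L rat. The log2 values were 8.51, 8.78, 8.55, 8.67 and 9.14 in L1 to L5 and 8.38, 7.53, 7.82 and 8.13 in H12, H13, H15 and H16. The means were 8.73 ± 0.25 (SD, n = 5) and 7.97 ± 0.37 (SD, n = 4), a log2 fold change of -0.76 (standard error 0.21, limma adjusted p = 0.623) or a ratio of 0.589. The two-sided exact permutation p was 0.00794, the smallest that 5 rats against 4 can give, and rank products called *Elovl6* lower (FDR 0 over 100 permutations). In a test of the 5280 probe sets that vary in WAT the call was kept at an FDR of 0.0331.

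*Hsd17b12* was the other gene called in WAT, with values of 11.64, 11.71, 11.74, 11.72 and 11.51 in L1 to L5 and 11.64, 11.24, 11.32 and 11.45 in the H rats. Rat H12 lay among the L rats. The log2 fold change was -0.25 (standard error 0.09), the two-sided exact permutation p 0.0317 and the rank products FDR 0.0151, but the FDR was 0.657 among the varying probe sets, 0.0745 above the median of the tissue, and 0.0608, 0.0644 and 0.0605 without L2, L3 and L4. *Elovl5* showed no difference, with 12.01 ± 0.10 (SD, n = 5) against 12.05 ± 0.14 (SD, n = 4).

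In WAT, 2 of the 7 genes were thus called by rank products, where 1.84% of all probe sets were, and 1 of 7 was free of overlap, where 0.451% were. Those shares are lowered by the probe sets that held 1 value, which cannot be free of overlap. All 140 probe sets without overlap lie among the 5280 varying ones, and both called genes are among the 3 members that vary. When the varying probe sets alone were ranked, 34 were called lower and 9 higher, and *Elovl6* was the 1 member called. Limma called 0 of 7, with 2 at an unadjusted p under 0.05, and 0.0548% of all probe sets. Those limma calls are of probe sets whose arrays differ by less than 1e-05, and 0 of the 5280 varying probe sets passed limma, with 413 at an unadjusted p under 0.05. Of 4 liver macrophage markers, 3 varied in WAT, and their score was higher in the H rats (0.05 to 0.25) than in the L rats (-0.22 to -0.00). *Cd68* ran from 8.46 to 9.82 and *Clec4f*, the marker that defines liver macrophages, held 1 value. The score of 7 macrophage markers, 6 of them varying and *Cd68* among them, overlapped, with -0.25 to 0.10 in the L rats and -0.10 to 0.36 in the H rats. The part of these markers in the *Elovl6* and *Hsd17b12* values was not tested.

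In BAT, *Fads1* had the largest diet difference of the 7 genes within that tissue, in the direction opposite to the liver. Its log2 values were 7.65, 6.87, 7.01, 7.12 and 6.60 in L1 to L5 and 6.17, 5.40, 5.44 and 5.41 in H12, H13, H15 and H16. The highest H rat, H12, lay below the lowest L rat, L5. The means were 7.05 ± 0.38 (SD, n = 5) and 5.61 ± 0.38 (SD, n = 4), and the log2 fold change was -1.44 (standard error 0.25, limma adjusted p = 0.402), a ratio of 0.368. The two-sided exact permutation p was 0.00794 and rank products called *Fads1* lower (FDR 0 over 100 permutations). With the muscle score as a covariate the log2 fold change was -1.28, and without rats 13 and 15 it was -1.26 (standard error 0.34) with the rank products call kept. Without those rats, however, rank products called 359 of all 31042 probe sets lower and 0 higher, against 410 and 202 with every rat. A kept call in that setting therefore says little about direction.

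*Elovl6* was also called lower in BAT. Its values were 10.65, 11.50, 10.99, 10.72 and 11.46 in L1 to L5 and 10.78, 10.15, 10.07 and 9.36 in H12, H13, H15 and H16, so that H12 lay among the L rats and the other H rats below them. The log2 fold change was -0.97 (standard error 0.32, limma adjusted p = 0.903), a ratio of 0.510, with a two-sided exact permutation p = 0.0317 and a rank products FDR of 0.000833. Without rats 13 and 15 the log2 fold change of *Elovl6* was -0.99 (FDR 0.00408), in the setting where every call over the tissue was a lower one.

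The other measurable genes of BAT lay close together between the diets. *Elovl5* had 12.40 ± 0.22 (SD, n = 5) and 12.34 ± 0.17 (SD, n = 4), *Elovl1* 8.54 ± 0.28 (SD, n = 5) and 8.55 ± 0.28 (SD, n = 4), and *Hsd17b12* 11.98 ± 0.11 (SD, n = 5) and 11.87 ± 0.05 (SD, n = 4). Rank products called 2 of the 7 genes in BAT, against 1.97% of all probe sets, and 1 of 7 was free of overlap, against 1.56%. Limma called 0 of 7 and 0% of all probe sets (1387 of which had an unadjusted p under 0.05), with 2 of the 7 at an unadjusted p under 0.05. The score of 3 endothelial markers was higher in the BAT of the H rats (0.01 to 0.19) than of the L rats (-0.13 to -0.01). That of 5 liver genes ran from -0.00 to 0.35 in the H rats and from -0.25 to 0.00 in the L rats, with 2 of the genes within 0.1 of the lowest value of the tissue. The score of 6 adipocyte markers ran from -0.14 to 0.02 in the H rats (median -0.07) and from -0.00 to 0.10 in the L rats (median 0.05). Their part in the *Fads1* and *Elovl6* values was not tested. Over all tissues and comparisons 31 exact tests of single genes were made, of which 7 had an unadjusted p under 0.05.

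**Figure D2:**
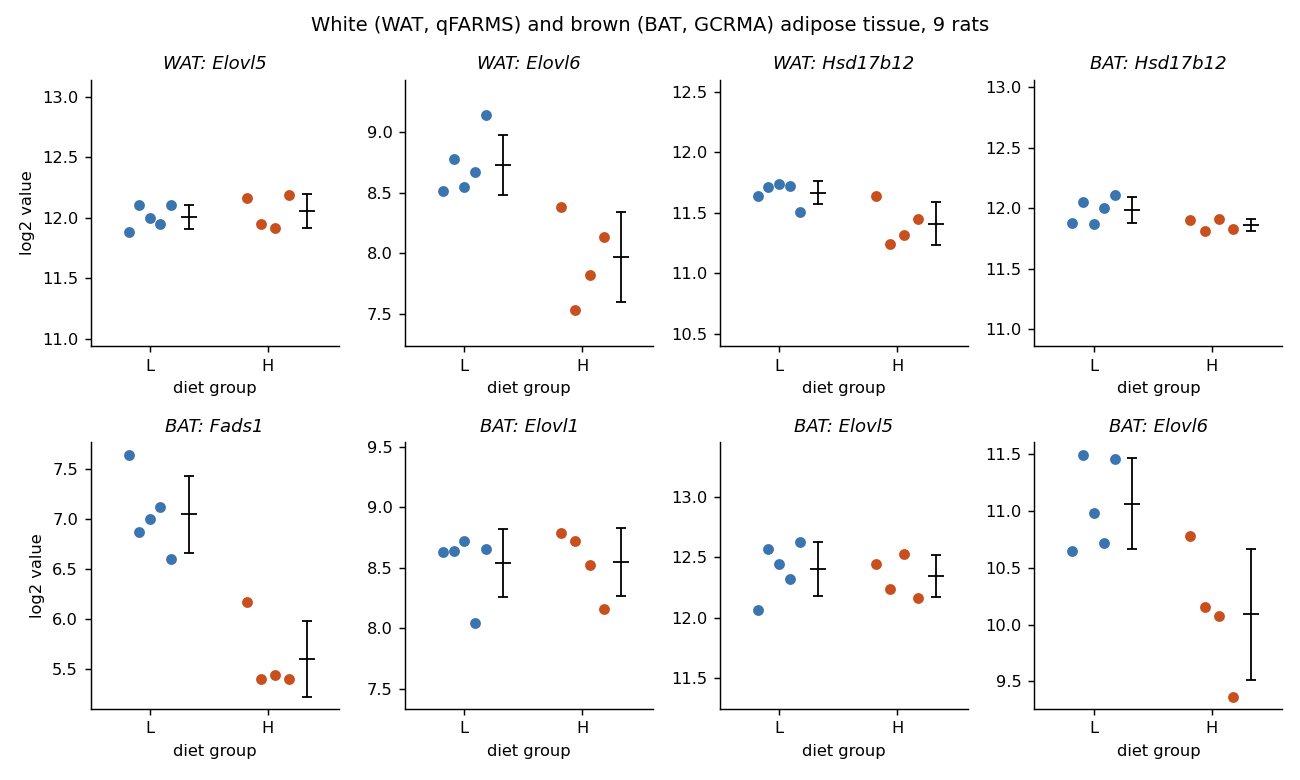
Log2 values of the genes that vary in WAT (qFARMS) and BAT (GCRMA) of 9 rats, by diet group on the horizontal axis. Points are rats and bars the mean with SD, and the L and H rats are apart in Elovl6 of WAT and Fads1 of BAT.

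**Figure D3:**
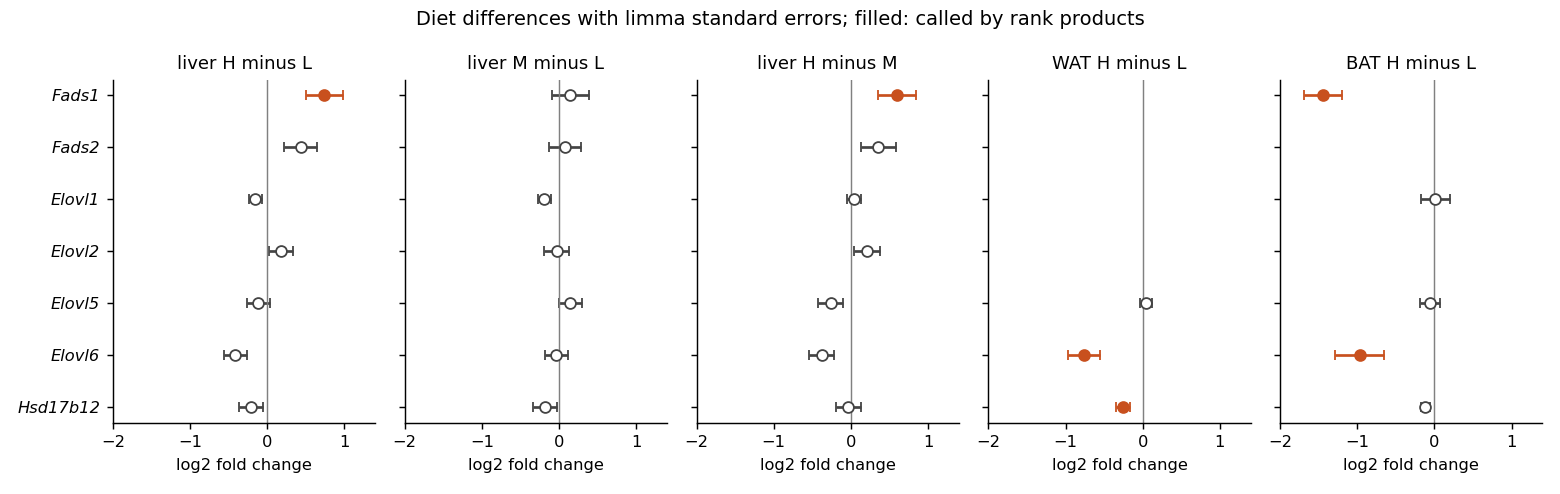
Log2 fold changes (horizontal axis) of the 7 genes (rows) in the 5 comparisons, with limma standard errors as bars. Filled points were called by rank products, and genes with no readable value in a tissue have no point. Fads1 lies at 0.74 for H minus L in the liver and at -1.44 in BAT.

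An interaction term in limma compared the H minus L difference of each gene across pairs of tissues. For *Fads1* the difference in BAT minus that in the liver was -2.19 log2 units (standard error 0.37, limma adjusted p = 0.0190). Of the 5 genes readable in both tissues, *Fads1* was the 1 that passed, where 0.206% of all probe sets did. The BAT value minus the liver value was -2.29, -2.25, -3.64, -2.83 and -3.27 in L1 to L5 and -4.48, -5.52, -5.31 and -4.85 in H12, H13, H15 and H16. These within-rat differences did not overlap between the diets (two-sided exact permutation p = 0.00794, added after the data were seen).

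With rat as a replicate block, which fits the tissues as paired, the *Fads1* interaction had the same size with a standard error of 0.32 and a limma adjusted p of 0.0699, as 3 probe sets passed in place of 64. Without rats 13 and 15 it was -1.81 (limma adjusted p = 0.304). The adjusted p was 0.0516 without L1, 0.0776 without L4, 0.0977 without H13 and 0.0909 without H15. Because BAT and liver were put on the log2 scale by different procedures, the differences were also divided by the pooled SD of the tissue, which gave -3.78 for *Fads1* in BAT and 1.66 in the liver.

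The log2 fold change of *Elovl6* was negative in the 3 tissues, called in WAT and BAT and not in the liver, and no interaction passed, which does not show that the differences were alike. Its H minus L difference in BAT minus that in the liver was -0.56 log2 units (standard error 0.35, limma adjusted p = 0.615), and in WAT it was -0.35 against the liver (standard error 0.25, limma adjusted p = 0.683) and 0.21 against BAT (standard error 0.38, limma adjusted p = 1). Of the 3 genes readable in WAT and another tissue, 0 had an interaction that passed limma against the liver or against BAT, and 0 an unadjusted p under 0.05. The shares of all probe sets that passed were 0.177 and 0.0419%.

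**Figure D4:**
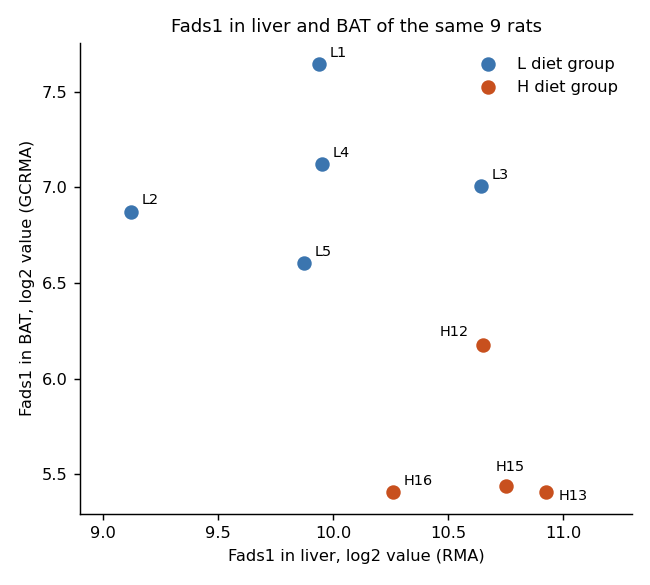
Fads1 in the liver (horizontal axis, log2 value by RMA) against BAT of the same rat (vertical axis, log2 value by GCRMA), 1 point per rat with its name, for 5 L and 4 H rats. The H rats lie below all L rats in BAT, at 5.40 to 6.17, and from 10.26 to 10.93 in the liver.

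The probe sets of *Elovl6* gave like differences in adipose tissue, and those of *Elovl5* did not in the liver. In WAT the log2 fold change of *Elovl6* was -0.76 on 1388108_at and -0.74 (standard error 0.22) on 1394401_at, where L1 (7.26) lay below H12 (7.33), and in BAT it was -0.97 and -0.88 (standard error 0.34). Rank products called both probe sets lower in both tissues, with an FDR for 1394401_at of 0.00037 in WAT and 0.0014 in BAT. In the liver 1394401_at gave -0.13 (standard error 0.19). *Elovl5* had a log2 fold change from L to H in the liver of -0.11 (standard error 0.15) on 1388348_at but -0.55 (standard error 0.24, limma adjusted p = 0.526) on 1387630_at, which rank products called lower (FDR 0.0114). The values of 1387630_at were 7.49, 7.64, 7.77, 6.56 and 7.01 in L1 to L5 and 6.78, 6.71, 6.89 and 6.59 in H12, H13, H15 and H16, with L4 below every H rat. Without L1, L2 or L3 that call was lost (FDR 0.0698, 0.0905 and 0.118).

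**Figure D5:**
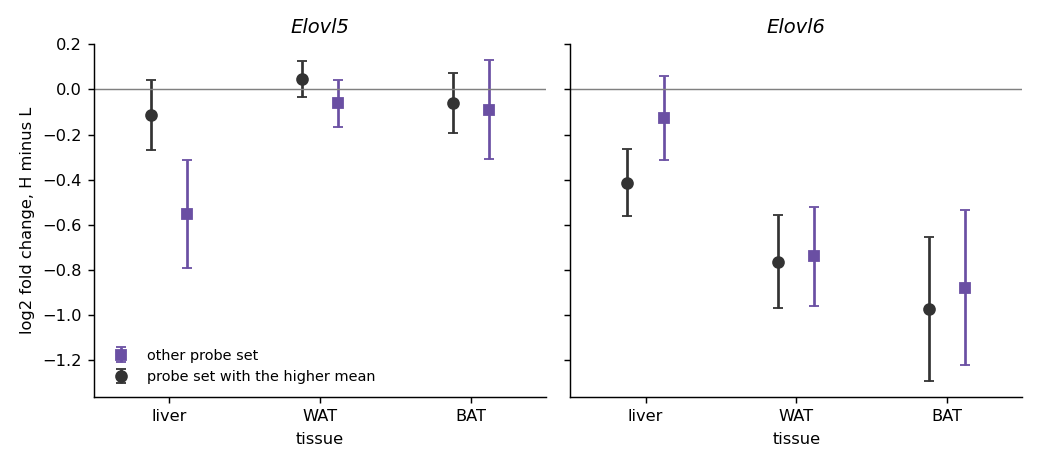
Log2 fold change, H minus L (vertical axis), of both probe sets of Elovl5 and Elovl6 in each tissue, with limma standard errors. The pair of Elovl6 lies together in WAT and BAT, and 1387630_at of Elovl5 lies at -0.55 in the liver, below the -0.11 of the probe set with the higher mean.

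Around the 7 genes, 46 of 55 listed genes of the same pathway had a probe set of their own. They comprise the other enzymes of elongation, further desaturases and their cytochrome b5 electron supply, the peroxisomal last step, incorporation into and release from phospholipids, eicosanoid enzymes and regulators. Limma called none of them in any comparison. From L to H in the liver 7 of the 46 had an unadjusted p under 0.05, as had 2809 of all 31042 probe sets, and rank products called *Srebf1* higher (log2 fold change 0.75, standard error 0.17) and *Scd*, the desaturase of saturated chains, lower (-2.71, standard error 0.61). The median log2 fold change of the list was 0.01 and that of all probe sets -0.00. From L to M rank products called 0 of the 46, with 9 at an unadjusted limma p under 0.05 (1252 of all probe sets), and from M to H it called *Scd* lower (-2.45, standard error 0.65), while *Srebf1* had 0.39 (standard error 0.18).

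In WAT 22 of the 46 genes varied, and rank products called 6 of them lower and 0 higher. Of all 31042 probe sets it called 337 lower and 234 higher, and of the 5280 varying ones, ranked alone, 34 lower and 9 higher. The 6 genes called lower over all probe sets included *Scd* (log2 fold change -5.05, standard error 0.74). *Agpat3*, which acylates lysophosphatidic acid, had -0.61 (standard error 0.18), and *Insig1*, which holds back SREBP processing, -0.46 (standard error 0.16). *Ptgs2*, an inducible cyclooxygenase, had -0.42 (standard error 0.44, FDR 0.0165). *Lpcat3*, which places polyunsaturated chains in phospholipids, had -0.30 (standard error 0.06). *Scp2*, a sterol carrier and peroxisomal thiolase, had -0.18 (standard error 0.06, FDR 0.0310). No result among the varying probe sets alone is given for these 6 genes. *Srebf1* had -0.08 (standard error 0.14). None of the 5 listed enzymes of the elongation cycle varied in WAT. The median over the 22 genes was 0.01 and that over all varying probe sets 0.02.

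In BAT rank products called 8 of the 40 varying genes lower and 1 higher, against 410 lower and 202 higher of all 31042 probe sets. The 1 called higher was *Ppara*, a nuclear receptor for fatty acids (log2 fold change 0.70, standard error 0.33), named after its values were seen. By the smallest limma p the first 6 were *Scd* (log2 fold change -1.55, standard error 0.26), *Cyb5r3*, the cytochrome b5 reductase (-0.90, standard error 0.18), *Insig1* (-1.21, standard error 0.25), *Lpcat3* (-0.41, standard error 0.10), *Cyb5b*, a cytochrome b5 (-0.44, standard error 0.15), and *Acsl4*, which activates arachidonic acid (-0.88, standard error 0.37). *Srebf1* had 0.22 (standard error 0.17) and was not called. Over the 40 genes, 24 were on the lower side and the median was -0.05. Of the 8 varying genes of desaturation and electron supply 7 were on the lower side in the H rats, with a median of -0.39, and of the 9 of incorporation and release 8, with a median of -0.41. Of the 12 regulators 9 were on the higher side, with a median of 0.08, of the 4 eicosanoid enzymes 3 (0.01), of the 4 of the elongation cycle 1 (-0.06) and of the 3 of the peroxisomal step 1 (-0.06), while the median over all varying probe sets was 0.00.

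The genes most like the members were those with the highest Pearson's r among genes with a mean above the tissue median, given as a description. Over the 13 livers, *Fads1* was most like *Slc35f6* (r = 0.93), *Fdps*, which makes farnesyl diphosphate in cholesterol synthesis (0.90), and *Abcg5*, a sterol exporter (0.89), out of 9251 genes. *Fads2* was most like *Fads1* itself (0.82), *Txnl1* (0.82) and *Ppcs*, an enzyme of coenzyme A synthesis (0.82). *Elovl5* was most like *Tcirg1* (0.88), *Klc1* (0.87) and *Dxo* (0.84), and *Elovl6*, low in this tissue, like *Zfp143* (0.87), *Rlim* (0.86) and *Lyn* (0.85). Over the 9 WAT arrays *Elovl6* was most like *Mmadhc* (0.95), *Fasn*, the fatty acid synthase (0.94), and *Agpat3* (0.90), out of 3328 genes. Over the 9 BAT arrays *Fads1* was most like *Gpi*, a glycolytic isomerase (0.95), *Colgalt1* (0.95) and *Wdr1* (0.94), and *Elovl6* like *Fdps* (0.98), *Rragc* (0.97) and *Slc27a1*, a fatty acid transporter (0.97), out of 8972 genes. In every tissue the diet difference enters these values, since r was computed over rats of all diets. The diets did not overlap in *Fads1* of BAT or in *Elovl6* of WAT, so r there holds the whole split by diet.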

How the data were processed

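Total RNA of each tissue was hybridized to GeneChip Rat Genome 230 2.0 arrays. The authors deposited log2 values made with RMA (liver), qFARMS (WAT) and GCRMA (BAT), each tissue normalized separately in R with Bioconductor. No further normalization was applied, and 57 control probe sets were left out. Genes were named through the platform annotation, in which 20826 probe sets carry 1 symbol, 436 several and 9780 none. Arrays hold no read counts, so their number limits the precision.

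Log2 fold changes, standard errors and p came from limma 3.58.1 in R 4.3.3, fitted to the 13 liver, 9 WAT or 9 BAT arrays, with Benjamini-Hochberg adjustment over 31042 probe sets and a threshold of 0.05. Rank products, the test of the study, were written in Python 3.11.15 (numpy 2.4.6, pandas 2.3.3, scipy 1.17.1) over every pairwise log2 ratio, with 100 permutations and an FDR under 0.05 per direction. Single genes were compared by two-sided exact permutation of the diets, unadjusted. Correlations used 100000 resamples, which were drawn within diets after the group means had been removed. The interaction fits take the tissues as unpaired, with rat as a replicate block as the alternative. The same rats gave the tissues, and the deviations of a rat from its group correlated between tissues, with r of 0.04 to 0.18 for BAT and liver, 0.17 to 0.35 for WAT and liver and 0.12 to 0.48 for WAT and BAT.

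All members and all their probe sets are named. Of the pathway list, up to 6 called genes per comparison with the smallest limma p are named, with *Scd*, *Srebf1* and, added after the data were seen, *Ppara*. The members and lists were chosen with earlier results of these data known. The steps were tested on simulated data. Array weights, trended and robust fits, centring, another quantile normalization, filters on low values, the mean of the probe sets of a gene, fits of the compared groups alone, a muscle covariate and leaving out each rat were tried as alternatives. Tests on varying probe sets alone, fits without rats 13 and 15 and the exact test of within-rat differences were added after the data were seen. Protein sequences were not used here.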

Additional observations from a re-analysis of the deposited data

Results flagged for a closer look

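The H minus L difference of *Fads1* in BAT minus that in the liver was -2.19 log2 units, the tested difference between tissues given above (limma adjusted p = 0.0190). With rat as a replicate block, as the same rats gave both tissues, its limma adjusted p was 0.0699, and without rats 13 and 15 it was 0.304. Far single rats were sought in the 37 groups with readable values, of which about 1 in 20 would be marked by chance. *Fads1* in the BAT of rat H12 was 6.17, against 5.44 for the nearest of the other H rats. *Elovl1* was 7.19 in the liver of rat H15, against 7.47 for the nearest H rat. *Elovl1* was 8.04 in the BAT of rat L4, against 8.63 for the nearest L rat.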

How the results depend on the processing

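Limma called 0 of the 7 genes in all 5 comparisons under every alternative run. The rank products counts were the same under centring. From M to H the 1 call became 0 above the tissue median and at an FDR of 0.01, and 0 to 1 with a rat left out. From L to H the liver count was 1 to 2 with a rat left out. Without H13 the 1 call was *Elovl6* (FDR 0.0392) in place of *Fads1* (FDR 0.0620). In WAT the 2 calls became 1 above the median, 1 at an FDR of 0.01, 1 among varying probe sets and 1 to 2 with a rat left out. Over all WAT probe sets 571 were called, and 9 higher and 34 lower when the varying ones alone were ranked. In BAT the count of 2 was kept, with *Fads1* and *Elovl6* called each time. Without rats 13 and 15, rank products called 359 probe sets of BAT lower and 0 higher. The BAT against liver interaction became 0 genes with rat as a replicate block (paired fit), 0 without rats 13 and 15, and 0 to 1 with a rat left out, with *Fads1* at -1.81 without rats 13 and 15 and -2.38 to -2.03 with a rat left out. The block changed no other call among the members. For *Elovl6* in WAT against BAT the sign depended on the scale, with 0.21 log2 units in the main fit and -0.47 on the SD scale. With a rat left out this interaction ranged from -0.0890 to 0.37 log2 units.

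The correlation of *Fads1* with *Fads2* was 0.75 with diet means removed and 0.54 without the 2 farthest arrays, neither past the adjusted threshold, and that with *Elovl6* was 0.14 with diet means removed. Of 464 recomputed fold changes 23 changed sign, in 10 of 29 gene and comparison pairs, none of them called. With a rat left out these ranged from -0.22 to 0.0279 for *Elovl5* from L to H in the liver. From L to M they ranged from -0.0519 to 0.33 for *Fads1*, -0.11 to 0.22 for *Fads2*, -0.12 to 0.0584 for *Elovl2* and -0.12 to 0.0755 for *Elovl6*. From M to H they ranged from -0.0242 to 0.11 for *Elovl1* and -0.18 to 0.0895 for *Hsd17b12*, and in BAT from -0.11 to 0.14 for *Elovl1*. With the mean of the probe sets, *Elovl5* had -0.0190 from L to M and -0.00760 in WAT. *Elovl1* in BAT had -0.00437 when centred, -0.0610 without rats 13 and 15 and -0.0433 with the muscle covariate. The causes were not tested. No value could be had for *Elovl6* in the liver interactions above the median, where its mean lies below the median.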
